A study of Homo sapiens with 6 samples.

Results

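The pyruvate dehydrogenase kinases and phosphatases were examined in MiaPaCa-2 cells, an established human pancreatic ductal adenocarcinoma (PDAC) line, under glucose withdrawal. The members are the 4 kinase genes PDK1, PDK2, PDK3 and PDK4 and, on the phosphatase side, the 2 catalytic subunits PDP1 and PDP2 with the regulatory subunit PDPR. They were taken by gene symbol, through the Ensembl identifier of each row, as 7 of the 60668 genes in the deposited table, and the rule used no measured value. Cells were kept for 48 h in medium with 2.5 mM glucose (low glucose, 3 libraries) or in standard medium with 25 mM glucose (control, 3 libraries), with no genetic change in either group. The series states 3 independent biological replicates, all of the 1 line, which limits them as a model of PDAC. The treatment text of all 6 samples reads 2.5 mM, whereas the titles and characteristics of 3 of them name a control.

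Pyruvate dehydrogenase is the mitochondrial complex that turns pyruvate, the end product of glycolysis, into acetyl-CoA for the TCA cycle. Each PDK phosphorylates serine residues of the E1 alpha subunit and switches the complex off, and PDP1 and PDP2 remove the phosphates and switch it on again. The kinases respond to the energy and redox state of the matrix, and their genes are regulated separately: PDK1 is a well-known target of hypoxia-inducible factor (HIF), and PDK4 is the isoform classically induced by fasting in muscle, heart and liver through PPAR, FOXO and glucocorticoid receptors. Because these enzymes act on a protein modification, mRNA levels show how much transcript was present and not how much of the complex was active.

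The libraries held 9741183 to 13733477 reads on genes. The labels tie 2 of the 6 columns of the table to a sample, low glucose replicates 1 and 2, and the other 4 were assigned to their group because the column names form a run of 3 for each condition. In the values listed below, the control libraries come in order of depth (9741183, 10126218 and 10190154 reads), followed by low glucose replicate 1, replicate 2 and the low-glucose library of 13733477 reads. The epithelial keratins KRT8 and KRT18 and the mesenchymal filament VIM had at least 13896 reads in every library, while the leukocyte marker PTPRC had 0, and the endothelial PECAM1 and the hepatocyte marker ALB at most 3. KRT8 (log2 difference -1.01) and KRT18 (-0.74) were lower and VIM (0.42) higher in low glucose, all past the limma threshold, and the part of this shift in the results below was not tested.

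PDK1 was the 1 member that passed the test for a difference under low glucose when all libraries were used. Its mRNA was 1.498-fold higher, with a 95% interval of 1.19 to 1.88. No other kinase and no gene of the phosphatase side passed the test, which does not show that they were unchanged. Of the 6 fits with 1 library left out, PDK1 passed in 4 and PDP2 in 1. In limma, with Benjamini-Hochberg adjustment over 21101 tested genes and a threshold of 0.05, 1 of 7 members passed (14.3%, against 30.9% of all tested genes). By direction, 1 of the 4 kinases rose and 0 fell, where 14.7% of all tested genes rose and 16.2% fell. On the phosphatase side 0 of 3 passed, with limma adjusted p-values of 0.393 to 0.843. The low-glucose and control libraries did not overlap for 1 member, PDK1, against 43.9% of the tested genes. In these bulk samples a change in RNA per cell and a change in the mixture of cell states cannot be told apart.

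PDK1 (ENSG00000152256.13) spans hg38 positions 172555373 to 172608669 of chromosome 2, plus strand, in 11 exons of its canonical transcript. Its product is the isoform that can phosphorylate every regulatory serine of E1 alpha. RefSeq (GRCh38.p14) places 1 of its starts in a GC-rich window with 77.0% G and C, which is shown here because it belongs to the member that rose. The window is chr2:172555840-172556139, plus strand, 250 bases before to 50 after the start. Capitals mark the matches on either strand to ACGTG, the letters searched as the core of the hypoxia response element. Other spellings of that core were not searched.

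PDK1 start window: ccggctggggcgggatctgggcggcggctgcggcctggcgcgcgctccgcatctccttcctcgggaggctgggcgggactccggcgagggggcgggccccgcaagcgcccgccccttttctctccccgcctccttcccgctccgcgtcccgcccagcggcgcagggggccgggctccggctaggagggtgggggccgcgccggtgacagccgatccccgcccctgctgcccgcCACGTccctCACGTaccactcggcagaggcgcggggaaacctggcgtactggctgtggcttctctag

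The pair of CACGT matches, which are ACGTG read on the other strand, began 17 and 8 bases before the start. For 6 members 10 windows were used, 1 to 3 each. None was used for PDP1, so the counts out of 10 say nothing about its starts. The same core occurred in 5 of the 10, each of another member, and in 21.4% of all 35116 windows of this length. The stretches around it in the members that did not pass are given for comparison, from chr17:50095204-50095245, chrX:24465207-24465247, chr16:66880279-66880341 and chr16:70114155-70114196, all on the plus strand, with ACGTG and the E-box CACGTG in capitals.
PDK2: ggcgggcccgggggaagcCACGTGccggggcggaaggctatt
PDK3: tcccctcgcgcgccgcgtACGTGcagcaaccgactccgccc
PDP2: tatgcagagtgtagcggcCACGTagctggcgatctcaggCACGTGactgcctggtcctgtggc
PDPR: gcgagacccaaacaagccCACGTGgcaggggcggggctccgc

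CACGTG, which holds ACGTG on both strands, was found in 3 of the 10 windows (PDK2, PDP2 and PDPR) and in 7.26% of all windows. The member windows with ACGTG had 65.3% to 77.0% G and C, against a median of 58.7% over all windows. The shares were not adjusted for this difference. The Sp1 GC box GGGCGG was found in 7 of the 10 windows and in 45.0% of all windows. The FOXO element TGTTTAC (3.42% of all windows), the C/EBP-ATF element TGATGNAAN (3.61%), the ERR element TCAAGGTCA (0.353%), the ER stress element (0.0769%) and the PPAR direct repeat (0.0228%) were in 0 of the 10 windows of the members on either strand. The core ACGTG was therefore present in 1 window of the gene that rose and in 1 window each of 4 members that did not pass. The other PDK1 window, with 36.3% G and C, held no match to it. These matches describe letters in 300 bases and were not tested for binding.

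The normalized count (reads over the size factor of the library) of PDK1 was 93.0, 82.5 and 102 in the control libraries and 117, 152 and 149 in the low-glucose libraries. The groups did not overlap, and replicate 1 of low glucose was closest to the control range. The means were 92.4 ± 9.60 (SD, n = 3) in control and 139 ± 19.1 (SD, n = 3) in low glucose, from 74 to 95 and 122 to 196 reads. On the log2(normalized count + 1) scale PDK1 differed by 0.58 with a standard error of 0.153 (limma adjusted p = 0.00948). An exact permutation test of this gene alone gave p = 0.1 (two-sided), the smallest that 3 against 3 libraries can give. The call was lost when either of 2 low-glucose libraries was left out. Without replicate 1 it held (0.70, limma adjusted p = 0.0127). Without replicate 2 the difference was 0.52 and the limma adjusted p 0.0636, and without the library of 13733477 reads they were 0.53 and 0.0569. Leaving out any 1 low-glucose library also lowered the number of all tested genes that passed, from 6528 to between 4319 and 4715. PDK1 passed in each of the 9 alternatives that kept all 6 libraries and used its own reads only. The differences were 0.47 to 0.66, with adjusted p 0.00504 to 0.0483 over limma, edgeR and DESeq2.

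PDK1-AS1, a lncRNA on the opposite strand, shares 445 bp of exon with PDK1, and the strand setting of the counting is not given in the sources used here. Its reads numbered 45 to 55 in the control libraries and 51 to 86 in the low-glucose libraries, with a log2 difference of 0.02 (limma adjusted p = 0.947). Its level was 59.7% of that of PDK1 in control and 40.3% in low glucose. With the reads of both genes added together, a choice made after the data were seen, the difference was 0.40 (limma adjusted p = 0.0247).

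**Figure D1:**
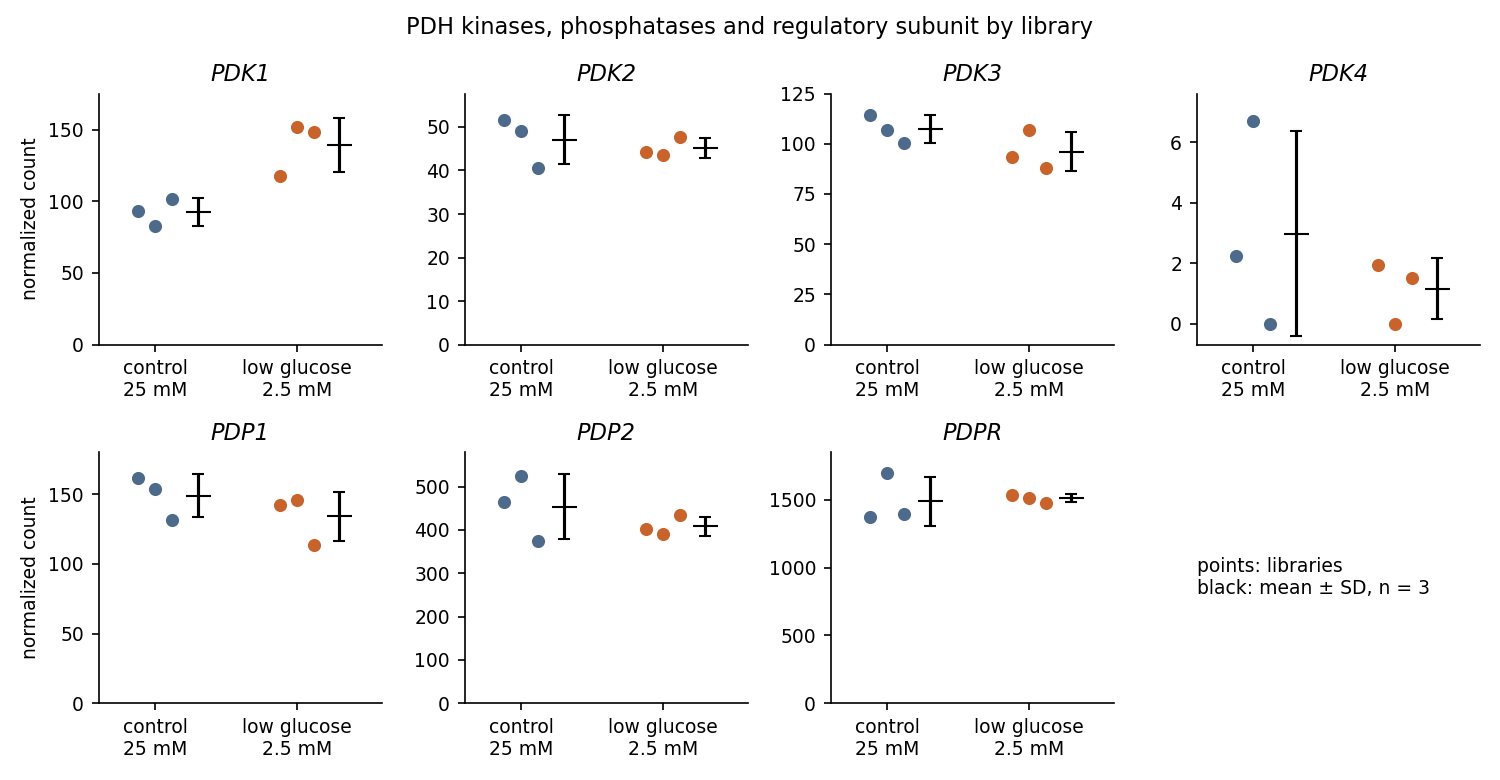
Normalized count of each member (y axis, from 0 except for PDK4, where the SD bar passes below 0) in the 3 control and 3 low-glucose libraries; points are libraries in the order used in the text, and the black marks are the mean ± SD. The PDK1 points of low glucose (117 to 152) sit above those of control (82.5 to 102), and the groups overlap in the other 6 panels.

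PDK2 (ENSG00000005882.12, chromosome 17, 50094737 to 50112152) encodes the most widely expressed isoform, which is also the one most sensitive to the inhibitor dichloroacetate. Its normalized count was 51.6, 49.0 and 40.7 in control and 44.2, 43.5 and 47.7 in low glucose. The low-glucose values lay inside the control range, with means of 47.1 ± 5.71 (SD, n = 3) and 45.1 ± 2.27 (SD, n = 3). The log2 difference was -0.05 (limma adjusted p = 0.872), and its 95% interval of -0.49 to 0.38 overlaps the lower end of the PDK1 interval. SAMD14 on the opposite strand shares 2113 bp, 38.6% of the PDK2 exons, and had 14 to 34 reads per library against 38 to 63 for PDK2.

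PDK3 (ENSG00000067992.15, chromosome X, 24465244 to 24550466) encodes the isoform with the highest activity when bound to the complex. Its normalized count was 114, 107 and 101 in control and 93.3, 107 and 87.9 in low glucose. Replicate 2 of low glucose fell within the control range and the other low-glucose libraries lay below it. The means were 107 ± 6.89 (SD, n = 3) and 96.0 ± 9.67 (SD, n = 3), a log2 difference of -0.16 (95% interval -0.48 to 0.15) that did not pass (limma adjusted p = 0.444).

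PDK4 (ENSG00000004799.8, chromosome 7, 95583499 to 95596516, minus strand), the fasting isoform, was at the limit of detection. It had 2, 6 and 0 reads in control and 2, 0 and 2 in low glucose. With fewer than 3 reads in 5 of the 6 libraries, these counts cannot show a change in either direction, and the fitted log2 difference of -0.59 (95% interval -2.28 to 1.11, limma adjusted p = 0.622) is not read as one. On the scale per length it ranked above 3.47% of the tested genes.

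PDP1 (ENSG00000164951.16, chromosome 8, 93857807 to 93926068) encodes the calcium-stimulated catalytic subunit. Its normalized count was 161, 154 and 132 in control and 142, 146 and 114 in low glucose. The ranges overlapped, with the lowest value in the low-glucose library of 13733477 reads. The means of 149 ± 15.5 (SD, n = 3) and 134 ± 17.8 (SD, n = 3) gave a log2 difference of -0.15 (95% interval -0.46 to 0.15, limma adjusted p = 0.455). Without the low-glucose library of 13733477 reads the difference was -0.040.

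PDP2 (ENSG00000172840.7, chromosome 16, 66878589 to 66895754) encodes the catalytic subunit that does not depend on calcium. Its normalized count was 464, 524 and 374 in control and 402, 390.2 and 433 in low glucose. The control libraries were spread more widely than the low-glucose libraries, which lay inside their range. With means of 454 ± 75.2 (SD, n = 3) and 409 ± 22.3 (SD, n = 3), the log2 difference was -0.14 (95% interval -0.39 to 0.11, limma adjusted p = 0.393). Without the control library of 10190154 reads, which held the lowest PDP2 value of the 6, the difference was -0.27 and passed (limma adjusted p = 0.0368), so that 1 library decides whether PDP2 is counted as lower.

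PDPR (ENSG00000090857.13, chromosome 16, 70114332 to 70162537) encodes the regulatory subunit that makes PDP1 less sensitive to magnesium. It was the member with the most reads, with a normalized count of 1376, 1695 and 1392 in control and 1536, 1514 and 1479 in low glucose. The low-glucose values lay within the control range. The log2 difference of 0.03 had the narrowest interval of the members, -0.16 to 0.22 (limma adjusted p = 0.843), which is 0.896-fold to 1.16-fold. The count of PDPR is uncertain in 2 ways. ENSG00000247228, a lncRNA on the opposite strand, shares 2161 bp of exon (22.3% of PDPR) and had 45.5% of the PDPR level in control and 47.0% in low glucose. The pseudogene PDPR2P, also on chromosome 16, had 48 to 133 reads per library, and 5.31% of all 150-base windows of the PDPR transcript, the length of 1 read, occur unchanged in the PDPR2P transcript. Adding the PDPR2P reads to those of PDPR, a choice made after the data were seen, gave 0.05 (limma adjusted p = 0.735).

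**Figure D2:**
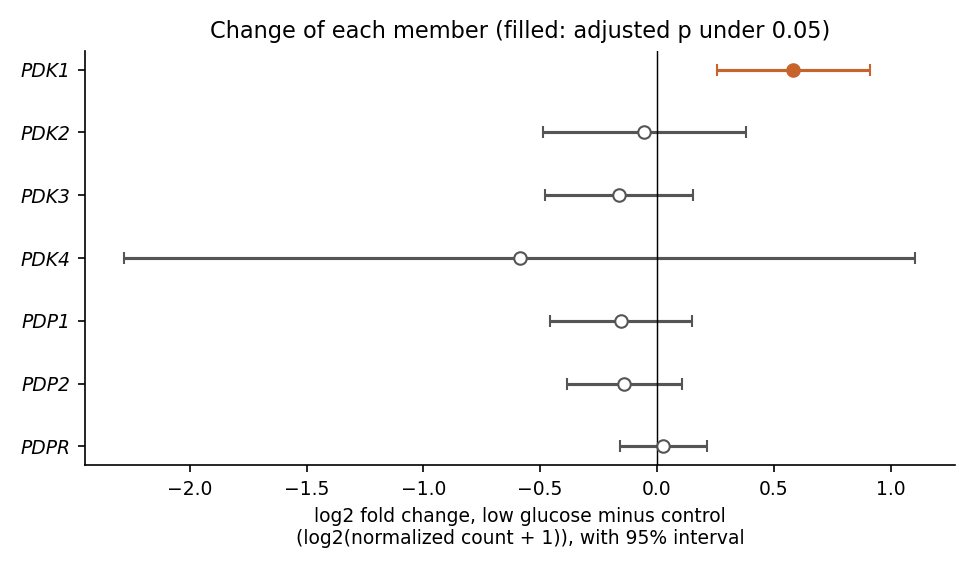
Log2 fold change of each member (x axis, low glucose minus control on the log2(normalized count + 1) scale) with its 95% interval per gene from limma; filled points passed at an adjusted p under 0.05. The interval of PDK1 (0.26 to 0.91) lies above 0, and those of the other 6 members include 0.

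Among themselves the kinases are close relatives. Their canonical coding sequences of 1218 to 1308 bases were 66.7% to 70.3% identical in pairwise alignment, and all 4 canonical transcripts have 11 exons. The kinase of the branched-chain complex, BCKDK, was 62.1% to 67.2% identical to them. PDP1 and PDP2, each with 2 exons in the canonical transcript, were 63.7% identical, and PDPR is an unrelated protein with 19 exons. Stretches shared by whole transcripts were searched for PDPR and its pseudogene and not for the kinases.

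The ratio of PDK1 to another member within 1 library does not depend on how libraries were scaled. PDK1 divided by PDK3 was 0.814, 0.771 and 1.01 in control and 1.26, 1.43 and 1.69 in low glucose. PDK1 divided by PDK2 was 1.80, 1.68 and 2.50 in control and 2.65, 3.50 and 3.11 in low glucose. Against the phosphatases, the ratio to PDP1 was 0.576, 0.536 and 0.772 in control and 0.824, 1.04 and 1.31 in low glucose. For all 5 members compared (PDK4 was left out), each low-glucose library was above each control library, and the mean ratio was 1.46 times (PDPR) to 1.69 times (PDK3) its control value. These ratios were chosen with the PDK1 result in view, share its reads and are given without a test. The control library of 10190154 reads had the highest ratio of the control libraries in all 5, close to low glucose replicate 1.

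**Figure D3:**
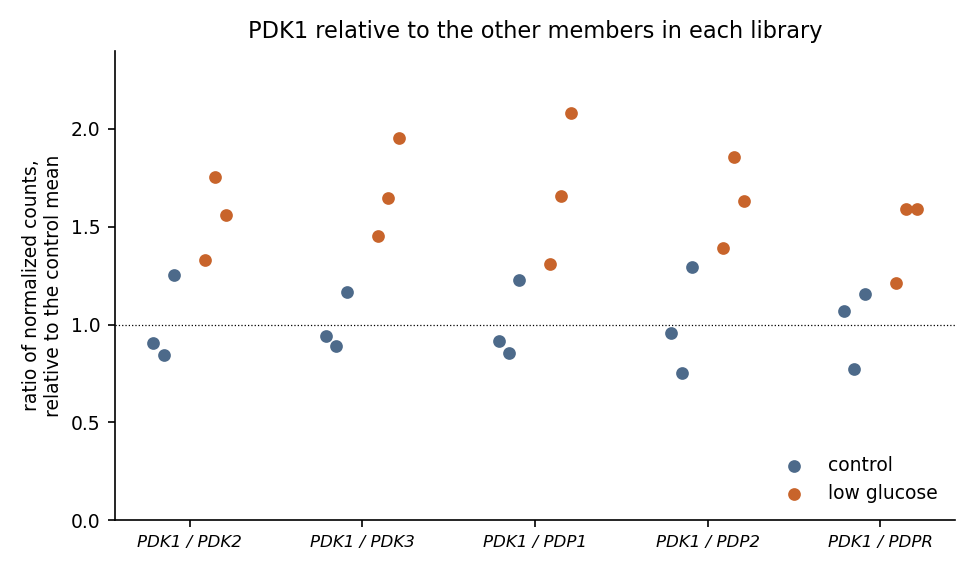
Ratio of the PDK1 normalized count to that of 5 other members in each library, relative to the control mean (y axis, from 0); points are libraries and the dotted line marks the control mean. In each of the 5 comparisons the 3 low-glucose points lie above the 3 control points, by a mean of 1.46 to 1.69 times.

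To compare levels between genes, reads were divided by the merged exon length of each gene and scaled to the same sum in every library (TPM). On this scale the phosphatase side was far more abundant than the kinases, a contrast that was much smaller with the canonical lengths given below. The level in control was 46.3 ± 5.32 (SD, n = 3) TPM for PDPR, 16.7 ± 2.81 (SD, n = 3) TPM for PDP2 and 8.02 ± 0.934 (SD, n = 3) TPM for PDP1. PDK2 followed with 2.60 ± 0.346 (SD, n = 3) TPM, PDK1 with 1.88 ± 0.194 (SD, n = 3) TPM, PDK3 with 1.85 ± 0.147 (SD, n = 3) TPM and PDK4 with 0.197 ± 0.224 (SD, n = 3) TPM. PDK1 and PDK3 did not differ beyond their spread in control, and in low glucose PDK1 (2.71 ± 0.362, SD, n = 3, TPM) stood above PDK3 (1.59 ± 0.142, SD, n = 3, TPM). PDK2 was at 2.38 ± 0.143 (SD, n = 3) TPM in low glucose (range 2.27 to 2.54), and PDK1 was above that range in 2 of its 3 libraries and inside it in replicate 1 (2.29 TPM).

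PDK1 made up 27.6%, 25.1% and 34.2% of the summed kinase level in the control libraries and 36.3%, 42.2% and 41.5% in the low-glucose libraries. For PDK3 the shares were 27.7% to 28.8% (control) and 20.9% to 25.1% (low glucose). The share of PDK1 was thus above, and that of PDK3 below, the control range in all 3 low-glucose libraries. The shares are parts of the same sum, so a larger PDK1 part makes the others smaller. The PDK3 level itself overlapped between the groups. The summed kinase level itself overlapped between the groups, at 6.53 ± 0.508 (SD, n = 3) TPM in control and 6.75 ± 0.389 (SD, n = 3) TPM in low glucose. The ratio of the summed kinases to the summed phosphatase side was 0.0924 ± 0.00860 (SD, n = 3) in control and 0.102 ± 0.00741 (SD, n = 3) in low glucose. This ratio overlapped between the groups (at most 0.09998 in control and at least 0.0934 in low glucose). Without PDPR, whose reads are uncertain, it was 0.266 ± 0.0238 (SD, n = 3) in control and 0.318 ± 0.0216 (SD, n = 3) in low glucose, with the highest control library (0.290) just under the lowest low-glucose library (0.293).

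Which kinase leads, and how far the phosphatase side exceeds the kinases, depends on the transcript assumed. The canonical PDK3 transcript has 1741 bp, against 17456 bp of merged exons, and with canonical lengths, a choice made after the data were seen, PDK3 made up 74.3% ± 0.800 (SD, n = 3) of the kinase level in control. PDK3 was then at 11.2 ± 0.973 (SD, n = 3) TPM in control. That was above PDP1, at 6.44 ± 0.831 (SD, n = 3) TPM, and close to PDP2, at 11.8 ± 2.27 (SD, n = 3) TPM. Under the same lengths the share of PDK1 was 7.95% ± 1.25 (SD, n = 3) in control and 12.6% ± 1.47 (SD, n = 3) in low glucose. With canonical lengths the kinase to phosphatase ratio was 0.305 in control and 0.295 in low glucose, so the direction of its difference turned, and without PDPR it was 0.835 ± 0.0790 (SD, n = 3) and 0.873 ± 0.0587 (SD, n = 3), which overlapped. The higher share of PDK1 in low glucose held for all 3 definitions of length. This is no separate support, since a length scales a gene alike in every library. PDK1 was already higher relative to PDK2 and PDK3 in low glucose, and PDK4 had few reads.

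**Figure D4:**
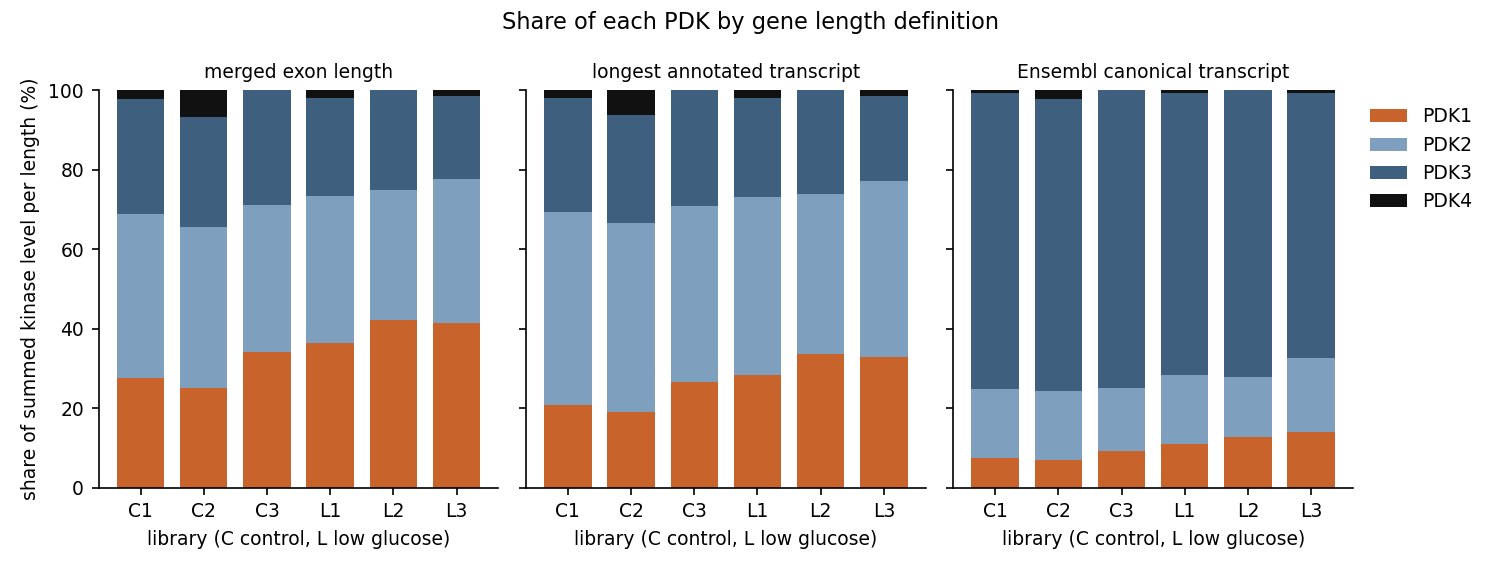
Share of each PDK in the summed kinase level per length (y axis, percent) in the control (C1 to C3) and low-glucose (L1 to L3) libraries, in the order used in the text, for 3 definitions of gene length. The PDK1 part is larger in every low-glucose bar than in every control bar of the same panel, while the PDK3 part ranges from 20.9% to 28.8% with merged exons and is 74.3% in control with canonical transcripts.

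The genes that the members act on, or are set by, were read in lists chosen around the pathway. Earlier results of these data were known when the lists were chosen. Among the 5 subunits of the complex, 1 fell and 4 did not pass, with a median log2 difference of -0.15 (0.05 over all tested genes). The 1 that fell was PDHX, which holds the E3 component in the core, from 838 ± 51.7 (SD, n = 3) to 609 ± 55.9 (SD, n = 3), a log2 difference of -0.46 (limma adjusted p = 0.00134). PDHA1, the substrate of the kinases, was at -0.19 and did not pass (limma adjusted p = 0.0613). Without the control library of 10126218 reads 3 subunits passed.

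The branched-chain complex has its own kinase, BCKDK, and phosphatase, PPM1K. Of its 5 genes, 3 rose, 1 fell and 1 did not pass, with a median of 0.31. The gene that did not pass, BCKDHA, was near the limit of detection. Its mean normalized count was 1.10 in control and 3.17 ± 3.94 (SD, n = 3) in low glucose. PPM1K rose from 16.2 ± 5.53 (SD, n = 3) to 50.1 ± 3.21 (SD, n = 3), a log2 difference of 1.61 (limma adjusted p = 0.000518). BCKDK, its opponent, was at 0.26 (limma adjusted p = 0.0304), BCKDHB of the E1 component at 0.31 and DBT, the E2 core, at -0.49. The number that passed was 2 without any 1 of the low-glucose libraries or without the control library of 9741183 reads. The difference in response between PPM1K and the PDH phosphatases was not tested.

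Of the 8 genes that supply lipoate and thiamine cofactors, 2 rose (LIPT1, 0.83, and LIAS, 0.40) and 2 fell, among them GLRX5 (-0.54), with a median of 0.10. The count was 2 in all without any 1 low-glucose library. Of the 10 tested genes for pyruvate transport and its other fates, 2 rose and 5 fell, with a median of -0.18. PCK2, the mitochondrial enzyme that makes phosphoenolpyruvate, rose from 974 ± 88.1 (SD, n = 3) to 2466 ± 114 (SD, n = 3), and GPT2, the mitochondrial alanine transaminase, was at 0.69. MPC2, a subunit of the mitochondrial pyruvate carrier, fell from 836 ± 46.0 (SD, n = 3) to 479 ± 41.1 (SD, n = 3), a log2 difference of -0.80 (limma adjusted p = 1.35e-05), while its partner MPC1 was at 0.00 (limma adjusted p = 0.994). The lactate exporter SLC16A3 was at -0.41, and SLC16A1, LDHA and PKM fell as well. LDHB was below the level needed for testing. Of the 8 tested genes of mitochondrial calcium handling, which bears on PDP1, 0 rose and 1 fell, LETM1 at -0.97 (limma adjusted p = 8.29e-06), with a median of -0.06. By the share that passed, the cofactor (4 of 8), pyruvate (70.0%) and branched-chain (80.0%) lists stood above the 30.9% of all tested genes, and the complex (1 of 5) and calcium (12.5%) lists below it.

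Of 15 tested transcription factors known to act on PDK genes, 5 rose and 4 fell, with a median of 0.09. PPARG (0.84, limma adjusted p = 0.00692) and FOXO3 (0.61) had the largest rises, and PPARGC1B (-0.47) and RXRA (-0.38) the largest falls. HIF1A was lower in low glucose, by -0.37 (limma adjusted p = 0.00188). Of 19 tested HIF targets other than PDK1, 8 rose and 2 fell (52.6% in all), with a median of 0.33. NDRG1 rose from 131 ± 16.5 (SD, n = 3) to 395 ± 16.0 (SD, n = 3) and VEGFA, the angiogenic growth factor, from 1044 ± 64.4 (SD, n = 3) to 3034 ± 125 (SD, n = 3), while EGLN1 (-0.62) and AK4 (-0.49) fell. The glucose transporter SLC2A1, a classical HIF target, was at 0.09 (limma adjusted p = 0.375), and CA9 was below the level needed for testing.

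Of 12 FOXO targets, 7 rose and 0 fell (58.3%), with a median of 0.42, led by GABARAPL1 (1.59), of the autophagy machinery, and KLHL24 (1.31). Of 13 tested PPAR targets of fatty acid use, 2 rose and 0 fell (15.4%), with a median of 0.10. CPT1A, which admits long-chain fatty acids to the mitochondrion, rose from 193 ± 54.2 (SD, n = 3) to 367 ± 4.39 (SD, n = 3), and ACADVL was at 0.40. The PPAR count was 1 without low glucose replicate 1 or 2, and 4 without the control library of 10190154 reads. PDK4, which PPAR and FOXO factors induce in fasting, was at 0 to 6 reads in the same libraries, and the difference between these lists was not tested.

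**Figure D5:**
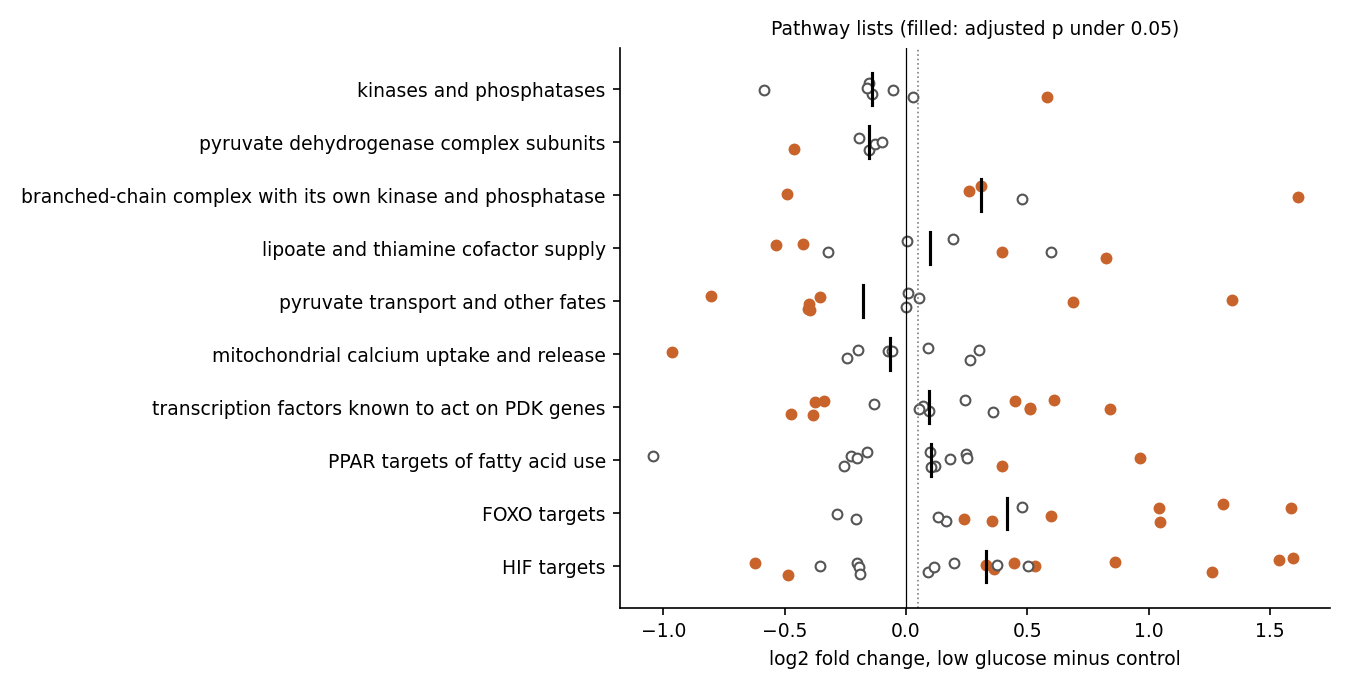
Log2 fold change (x axis, low glucose minus control) of the tested genes in each list (rows); filled points passed at an adjusted p under 0.05, black bars are list medians, the solid line marks 0 and the dotted line the median of all tested genes, 0.05. In the top row PDK1 is the 1 filled point, at 0.58, while the branched-chain row extends to 1.61 and the FOXO and HIF rows to 1.59.

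Over the 6 libraries, the profile of PDK1 was most like those of SLC25A43 (Pearson r = 0.996), DELE1 (0.994) and DTX3 (0.994), among 11830 genes whose mean normalized count reached 50. PDK1 was added to this search after the data were seen, and 611 of these genes had an r above 0.9. The rule named PDK4 and PDP1, the kinase and the phosphatase gene with the largest absolute difference. PDP1 was closest to ENSG00000274031.1 (0.982), ZNF566 (0.981) and VPS16 (0.962), all with small log2 differences (-0.21, -0.06 and -0.07). For PDK4 the search gave HINT3 (0.993), VASH1 (0.992) and CFAP97 (0.979), which rests on 0 to 6 reads. These r describe 6 libraries that share a group contrast and a depth difference, and carry no test.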

How the data were processed

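RNA-seq libraries (strand-specific, paired 150-base reads) of 6 MiaPaCa-2 samples were mapped by the authors to hg38 with STAR 2.7.0e, after trimming with Trim Galore, and DESeq2 was used. The study lists RSEM among its software without saying that it made this table; the strand setting and the annotation are not given in the sources used here. The values deposited by the authors are a signal: the count of each gene over the size factor of its library. Multiplying back gave whole reads for 100% of the values above 0, within a tolerance of 0.01; these may be rounded estimates, and how reads shared by genes were split is not known. Of the identifiers, 99.4% matched Gencode v44.

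Values were tested as log2(value + 1), keeping genes whose mean reached 1, with limma 3.58.1 in R 4.3.3 (trend, two-sided, Benjamini-Hochberg over all tested genes, threshold 0.05). Adding 1 makes the fold change of weakly expressed genes too small. Alternatives were other scalings, filters, a pseudocount of 0.1, no variance trend, edgeR 4.0.16 and DESeq2 1.42.0 on recovered reads, and each library left out. Each pair of replicates differed by more than sampling noise. The chi-square per gene was 1.90 to 2.89 for low-glucose pairs and 4.63 to 18.9 for control pairs. The control libraries thus differed more among themselves, while limma used the same variance for both groups. The fitting code was run on simulated counts with the same spread in both groups and planted changes larger than that of PDK1. That run does not show how the fits perform on these libraries. Levels per length used the recovered reads and Gencode exon lengths, and sequences are from RefSeq. Counting intervals were not used, since spread between libraries sets the precision.

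All members are named. From each list the 2 largest rises and 2 largest falls among genes past the threshold are named, with others (PDHA1, HIF1A, MPC1, SLC2A1, SLC16A1, LDHA, PKM, BCKDK, BCKDHA) named after their values were seen. A gene that this rule names is not reported here. The members and lists were chosen with earlier results of these data known.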

Additional observations from a re-analysis of the deposited data

How the results depend on the processing

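No paired analysis was possible because replicate numbers could be read for 2 of the 6 columns, both low glucose. PDK1 kept its direction in all 16 alternatives, 1 of which added the reads of PDK1-AS1. With 1 library left out, the log2 difference ranged from 0.50 to 0.70 for PDK1 (adjusted p 0.00413 to 0.0636), from -0.15 to 0.014 for PDK2, from -0.24 to -0.10 for PDK3 (-0.10 without the low-glucose library of 13733477 reads), from -1.36 to 0.11 for PDK4, from -0.24 (without the control library of 10190154 reads) to -0.040 for PDP1, from -0.27 to -0.030 for PDP2 and from -0.025 to 0.13 for PDPR (-0.016 without the control library of 10190154 reads). PDK2 turned to 0.026 with scaling by library size. The number of members past the threshold was 1 in the 9 alternatives with all libraries and 0 to 2 with 1 left out. Over all genes it was 4090 without the variance trend and 4319 to 7251 with 1 library left out, against 6528.

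With a mean of at least 5, 2 subunits of the complex and 4 PPAR targets passed. Without the variance trend the counts were 2 (branched-chain), 2 (cofactors), 5 (transcription factors) and 1 (PPAR targets), and DESeq2 gave 2 for the branched-chain list. With 1 library left out the counts ranged from 1 to 3 (complex), 2 to 4 (branched-chain), 2 to 4 (cofactors) and 1 to 4 (PPAR targets).

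Shares and ratios per length moved with the length. With the longest annotated transcript, the ratio of kinases to phosphatase side was 0.110 in control and 0.117 in low glucose, and the shares were 22.2% and 31.7% for PDK1 and 46.8% and 43.1% for PDK2. With the canonical transcript, the ratio was 0.305 and 0.295, and the shares were 7.95% and 12.6% (PDK1), 16.8% and 17.1% (PDK2) and 74.3% and 69.9% (PDK3). Without PDPR the ratio was 0.266 and 0.318. These moves follow from the lengths and sums used. For the other moves the cause was not tested. At 0 to 6 reads PDK4 could not show a change, and the interval of PDK2 rests on 38 to 63 reads per library.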
